A study of Drosophila melanogaster with 4 samples.

Results

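The regions described here are those that lay on 2LHet, 2RHet, 3LHet, 3RHet, XHet, YHet and U, the heterochromatic and unplaced sequences of the FlyBase release 5 fly genome. They were chosen by sequence name alone, and 275 of the 11489 regions of the combined list met that rule, with 37 of the 3139 regions of replicate 1 and 38 of the 2853 regions of replicate 2. The regions came from chromatin immunoprecipitation and sequencing (ChIP-seq) of whole Drosophila melanogaster embryos, wild-type Oregon-R at 14 to 16 h, with an antibody against POF, MO 459. The 2 ChIP samples and 2 inputs share strain, genotype and stage, and the inputs served as the background of the ChIP samples. The authors deposited 1 list of significantly enriched regions per ChIP replicate and 1 combined list for the replicate set, and each region carries 1 score made by the authors. No control without POF or without the antibody was analysed here, so nonspecific recovery and POF binding at a region cannot be told apart.

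POF binds RNA and coats chromosome 4, where its binding depends on the heterochromatin protein HP1 and the histone H3 lysine 9 methyltransferase Setdb1. The sequences named Het are assembled pieces of the repeat-rich heterochromatin around the centromeres and of the Y chromosome. U joins pieces that were not assigned to a chromosome, so a position on U says nothing about which chromosome carries it. A distance along U can cross from one piece to another, so it need not be a distance in the genome.

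The heterochromatic and unplaced sequences held few regions for their full length. The lists do not say how much of that length is assembly gap or sequence to which reads could not be assigned. The part of this in the densities below was not tested. They made up 13.8% of the 139.7 Mb considered, with 19.3 Mb, and held 2.39% of the combined regions, with 1.18% in replicate 1 and 1.33% in replicate 2. Replicate 1 had 1.91 regions per Mb on them and replicate 2 had 1.97, against 25.4 and 23.0 per Mb on the main arms X, 2L, 2R, 3L and 3R. The mean density was 1.94 ± 0.0366 per Mb on the heterochromatic and unplaced sequences and 24.2 ± 1.70 per Mb on the main arms (SD, n = 2 replicates), a ratio of 0.0804 ± 0.00717. The gap was far larger than the spread between replicates, but the two-sided sign-flip permutation test, which is exact, cannot go below p = 0.5 with 2 replicates, the value it gave. Covered sequence gave the same order, with 0.332% ± 0.00441 on the heterochromatic and unplaced sequences and 4.59% ± 0.332 on the main arms (ratio 0.0725 ± 0.00428, exact p = 0.5).

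In the combined list the gap was smaller. The heterochromatic and unplaced sequences had 14.2 regions per Mb (95% exact Poisson interval 12.6 to 16.0), against 93.1 per Mb on the main arms (91.4 to 94.9), a ratio of 0.153. The centromere-proximal 1 Mb of the main arms, the arm sequence nearest to the Het sequences, lay between them at 50.4 per Mb (44.4 to 57.0). Chromosome 4 had 96.2 per Mb (80.3 to 114). The same order, from the heterochromatic and unplaced sequences through the proximal arm ends and the whole arms to chromosome 4, held in replicate 1 (1.91, 13.0, 25.4 and 57.0 per Mb) and in replicate 2 (1.97, 10.4, 23.0 and 57.0 per Mb). Uextra, a further collection of unplaced sequence of 29.0 Mb, had 0 regions in each list and is not counted with these sequences.

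**Figure D1:**
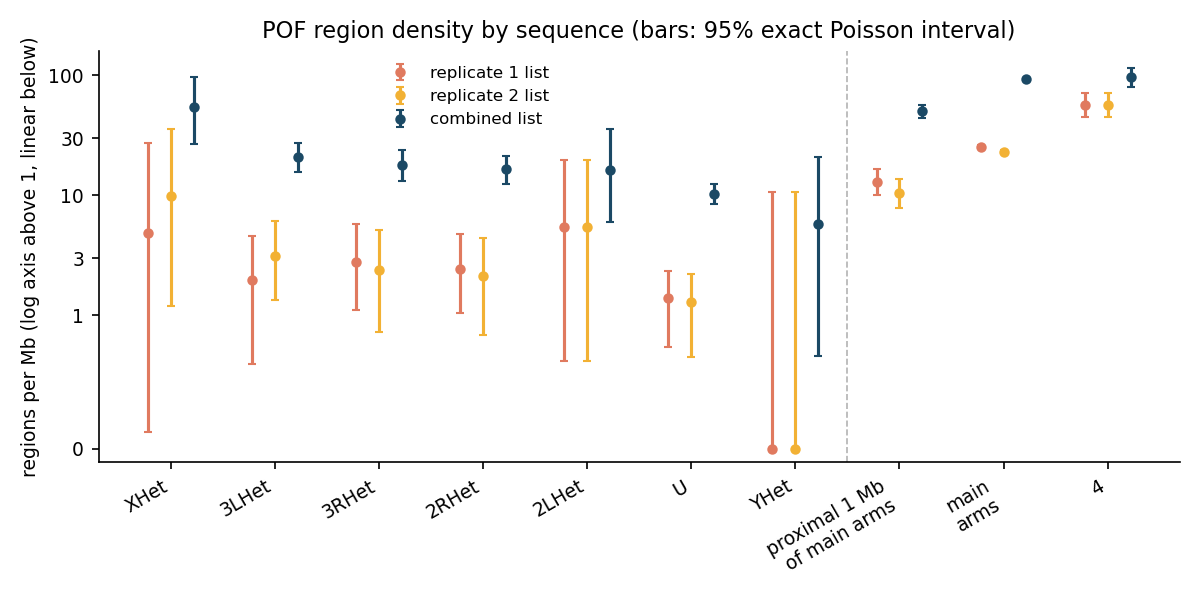
Regions per Mb of sequence (y axis, logarithmic above 1 and linear below) for each heterochromatic or unplaced sequence, left of the dashed line, and for the proximal arm ends, the main arms and chromosome 4. Points are the 3 lists and bars 95% exact Poisson intervals; XHet stands highest among the 7 sequences at 53.9 per Mb in the combined list, and U at 10.3.

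The 7 sequences differed in density. XHet had 11 combined regions on 0.204 Mb, or 53.9 per Mb (26.9 to 96.4), and was followed by 3LHet with 53 regions at 20.7 per Mb (15.5 to 27.1), 3RHet with 45 at 17.9 (13.0 to 23.9), 2RHet with 54 at 16.4 (12.3 to 21.4) and 2LHet with 6 at 16.3 (5.97 to 35.4). U had 104 regions on 10.0 Mb, or 10.3 per Mb (8.46 to 12.5), and YHet had 2, or 5.76 per Mb (0.698 to 20.8). The intervals of 3LHet, 3RHet, 2RHet and 2LHet overlap, so their order is not resolved. The interval of XHet overlaps that of 2LHet and, at its edge, that of 3LHet. The interval of YHet overlaps those of all the others but XHet, so the ends of the order are not fully resolved either. The interval of U ends below that of 3LHet and of 3RHet, and overlaps that of 2RHet only at its edge. These intervals cover counting error and assume that regions fall independently, which neighbouring regions may not do.

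The replicate lists were too small to order the sequences firmly. XHet had 1 region in replicate 1 and 2 in replicate 2, and 2LHet had 2 in each. On 2RHet there were 8 and 7, on 3LHet 5 and 8, and on 3RHet 7 and 6. U had 14 and 13, which is 1.39 and 1.29 per Mb, the lowest density of any of the 7 sequences with a region. YHet had 0 regions in both replicates, which allows up to 10.6 regions per Mb by the exact Poisson interval. Its 2 combined regions, from 25822 to 27210 with a score of 0.928 and from 214339 to 215351 with a score of 0.554, overlapped neither replicate list.

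Regions on these sequences were narrow. The median width was 1262 bp for the heterochromatic and unplaced regions and 1445 bp for the main arms in the combined list. It was 1603 and 1626 bp in replicates 1 and 2 on the heterochromatic and unplaced sequences, against 1807 and 1855.5 bp on the main arms (mean difference -217 ± 18.0 bp, SD, n = 2, exact sign-flip permutation p = 0.5). Of the combined regions, 55.3% on the heterochromatic and unplaced sequences (95% Wilson interval 49.4 to 61.0) and 39.5% on the main arms (38.6 to 40.4) were narrower than 1301 bp, the narrowest region of either replicate list. At the narrowest width of the combined list, 1001 bp, stood 10.2% of the heterochromatic and unplaced regions and 3.22% of the main arm regions. Regions of 3000 bp or more numbered 4 of 275 on the heterochromatic and unplaced sequences and 693 of 11084 on the main arms.

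By sequence, the median combined width ran from 1201 bp on YHet, 1221.5 bp on U, 1251 bp on 3LHet, 1260 bp on 3RHet and 1281.5 bp on 2RHet to 1463 bp on XHet and 1914.5 bp on 2LHet, which has 6 regions. The widest were a region of 4562 bp on U from 5629994 to 5634555, with a score of 0.406, and one of 3575 bp on 2LHet from 31985 to 35559, with a score of 0.425. Both overlapped both replicate lists. The widest on 3LHet, 3225 bp from 604154 to 607378 with a score of 0.506, overlapped replicate 1 only, and the widest on XHet, 2005 bp from 107303 to 109307, overlapped replicate 2 only. The widest on 2RHet, 2560 bp from 1858600 to 1861159 with a score of 0.559, and on 3RHet, 2492 bp from 1201474 to 1203965 with a score of 0.614, overlapped neither.

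Few of these regions were found in both replicates. An overlap of at least 1 bp with both replicate lists was seen for 13 of the 275 combined regions on these sequences, which is 4.73% (95% Wilson interval 2.78 to 7.92), against 1648 of 11084 on the main arms, or 14.9% (14.2 to 15.5). The share over all combined regions was 14.9%. Another 17 overlapped replicate 1 only and 22 replicate 2 only. The remaining 223, or 81.1% (76.0 to 85.3), overlapped neither list, against 64.9% on the main arms and 65.0% over all combined regions. Among combined regions of at least 1301 bp, 13 of 123 on the heterochromatic and unplaced sequences, or 10.6%, and 24.5% on the main arms overlapped both lists.

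By sequence, the count in both lists came to 4 of 54 regions on 2RHet, 3 of 53 on 3LHet, 2 of 45 on 3RHet, 1 of 6 on 2LHet, 3 of 104 on U, 0 of 11 on XHet and 0 of 2 on YHet. On U this is 2.88% (0.986 to 8.14), below the 14.9% over all combined regions. The interval of 3RHet (1.23 to 14.8) ends just below that share. Those of 2RHet (2.92 to 17.6), 3LHet (1.94 to 15.4), 2LHet, XHet and YHet include it. The Wilson intervals of the 7 shares overlap, so no sequence stood apart from the others in support.

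The replicate lists were then set against each other. Of the replicate 1 regions on these sequences, 13 of 37, or 35.1% (21.8 to 51.2), overlapped a replicate 2 region, against 55.0% on the main arms, and the share over all replicate 1 regions was 55.3%. Of the replicate 2 regions, 13 of 38, or 34.2% (21.2 to 50.1), overlapped a replicate 1 region, against 61.0% on the main arms, and the share over all replicate 2 regions was 61.1%. The mean share was 34.7% ± 0.654 on the heterochromatic and unplaced sequences and 58.0% ± 4.23 on the main arms (SD, n = 2), a difference of -23.3 percentage points that exceeded the spread between replicates (exact sign-flip permutation p = 0.5, the smallest possible). Without U the shares were 10 of 23 and 10 of 25. On U they were 3 of 14 and 3 of 13.

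Of the 24 replicate 1 regions with no partner, 3 lay within 5 kb of a replicate 2 region, or 12.5% (95% Wilson interval 4.34 to 31.0), against 31.1% of such regions on the main arms (28.7 to 33.6). Of the 25 replicate 2 regions with no partner, 3 lay within 5 kb of a replicate 1 region, or 12% (4.17 to 30.0), against 30.1% on the main arms (27.4 to 32.9). The main arms hold more regions per Mb for a region to lie near. None of the 6 lay on U, where the median distance to the nearest region of the other replicate was 595 kb for replicate 1 and 248 kb for replicate 2. Where the replicates did meet, the typical pair met closely, though single pairs varied. In the 13 shared pairs the starts differed by a median of 85 bp and the ends by 51 bp, and the bases in common made up a median of 93.1% of the pair's joint span, against 121 bp, 114 bp and 85.6% in 1685 pairs on the main arms.

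The 13 combined regions found in both lists lay on 5 of the 7 sequences. On 3RHet, the region from 2106204 to 2108302 had the highest combined score of the 13, 1.09, with 1.38 in replicate 1 and 0.954 in replicate 2. On 2RHet, 2823036 to 2825219 and its neighbour 2826827 to 2828986 had combined scores of 0.974 and 0.827. The first of them scored 1.03 in replicate 1 and 0.915 in replicate 2, and the second 0.931 and 0.719. Both were 2109 bp wide in replicate 1, and their starts lay 3768 bp apart there, with 3836 bp in replicate 2 and 3791 bp among the combined regions. The replicates placed the first of these regions within 17 bp of each other at the start and 4 bp at the end.

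Among the other members found in both lists, U from 7542651 to 7545669 scored 0.841 in the combined list, with 0.838 and 0.867 in replicates 1 and 2. On 3LHet, 1395838 to 1397927 scored 0.766 (0.904 and 0.638), and on 2RHet, 470619 to 472843 scored 0.633 (0.636 and 0.647). The other 7 had combined scores below the combined median of these sequences, 0.576. They were U from 7216118 to 7218058 at 0.437, 2LHet from 31985 to 35559 at 0.425, 2RHet from 3197063 to 3199050 at 0.422, U from 5629994 to 5634555 at 0.406, 3LHet from 708439 to 710660 at 0.384 and from 701287 to 703639 at 0.356, and 3RHet from 1823089 to 1825050 at 0.342. The median width was 2184 bp for the 13 and 1171 bp for the 223 regions in neither list.

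**Figure D2:**
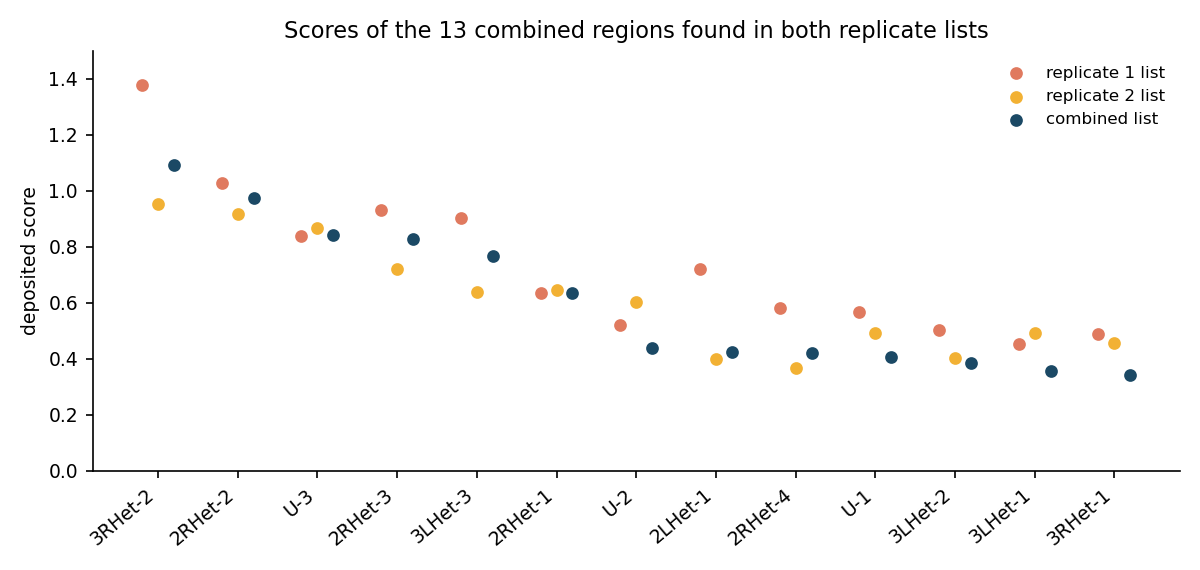
Deposited scores (y axis) of the 13 combined regions that overlapped both replicate lists, in order of combined score, with the score of the overlapping region in each replicate list. Regions are numbered along their sequence among the 13; the combined scores span 0.342 to 1.09.

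Scores on U were high and widely spread, and those on the other 6 sequences were closer to the main arms. The median combined score was 0.576 on the heterochromatic and unplaced sequences (quartiles 0.470 and 0.973) and 0.483 on the main arms (0.431 and 0.541). U stood highest, with a median of 0.940 and quartiles of 0.580 and 1.56. The medians were 0.741 on YHet, 0.638 on XHet, 0.528 on 2RHet, 0.525 on 3RHet, 0.494 on 3LHet and 0.446 on 2LHet. In the replicate lists the medians were 0.890 and 0.697 on the heterochromatic and unplaced sequences, against 0.701 and 0.655 on the main arms, a mean difference of 0.115 ± 0.104 (SD, n = 2, exact sign-flip permutation p = 0.5) that is close to the spread between replicates. Without U the median was 0.517 in the combined list, against 0.483 on the main arms. In replicate 1 it was 0.775, against 0.701 on the main arms, and replicate 2 had 0.638, against 0.655, so the direction differed between the replicates. The files do not state the scale of the score, and scores are compared here within a list.

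The strongest combined scores fell on these sequences out of proportion to their number. Of the 115 combined regions in the top 1.00% of scores, those of 1.29 or more, 45 were heterochromatic or unplaced and 70 were on the main arms. U alone held 33 of them. None of the 45 overlapped both replicate lists, 41 overlapped neither, and their median width was 1036 bp. Of the 70 on the main arms 40 overlapped both lists, and their median width was 2304.5 bp. Of the 12 combined regions ranked 10 or better, ties included, 6 were heterochromatic or unplaced, as were 8 of the 10 best in replicate 1 and 2 of the 10 best in replicate 2, and none of the 6 lay in both replicate lists and none of the 8 or the 2 in the other replicate.

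The best scoring region of each sequence shows the same traits. The top combined score, 3.31, belonged to a region of 1001 bp on 2RHet, from 3004809 to 3005809, and to a region of 1012 bp on U, from 6488873 to 6489884. The best on 3LHet, 300669 to 301669, was 1001 bp wide with a score of 3.02, a score that 7 combined regions share. XHet from 116981 to 118014 scored 2.35 and 2LHet from 45557 to 46563 scored 1.99. All 5 of these regions, and the better of the YHet regions given above, overlapped neither replicate list. The best on 3RHet, 1144611 to 1145900, had a combined score of 2.17 and overlapped replicate 1 only, where its score of 3.62 was the highest of that list.

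**Figure D3:**
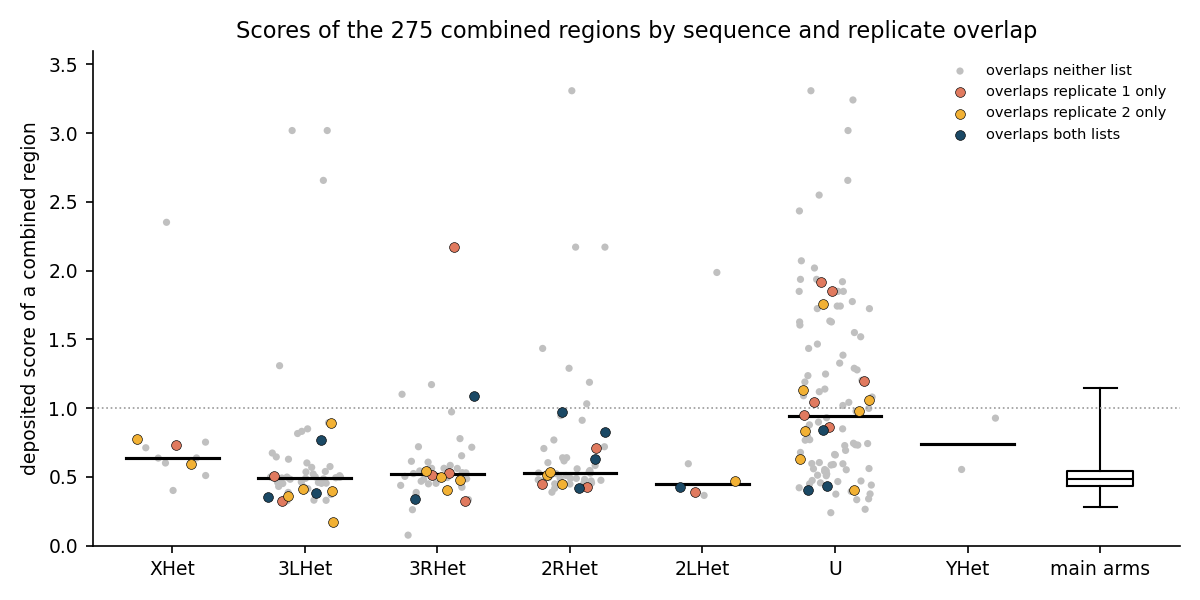
Deposited score (y axis) of each of the 275 combined regions by sequence, coloured by the replicate lists it overlapped, with black lines at the medians. The box gives the quartiles of the main arms and its whiskers the 1st and 99th percentiles; the dark blue points found in both lists lie at or below 1.09, while points above 2 are grey apart from 1 region on 3RHet.

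On the main arms a high score went with more replicate support, and on the heterochromatic and unplaced sequences it did not. The dividing score of 1 used here was chosen after the values had been seen. Of the 65 heterochromatic and unplaced combined regions that scored above 1, 1 overlapped both replicate lists, or 1.54% (95% Wilson interval 0.272 to 8.21), against 141 of 185 such regions on the main arms, or 76.2% (69.6 to 81.8). Of those that scored up to 1, the shares were 12 of 210, or 5.71% (3.30 to 9.72), on the heterochromatic and unplaced sequences and 13.8% (13.2 to 14.5) on the main arms. Without U the heterochromatic shares were 1 of 17 above 1 and 9 of 154 up to 1, or 5.88% and 5.84%. On U they were 0 of 48 and 3 of 56. Of the regions above 1 that were at least 1301 bp wide, 1 of 18 on the heterochromatic and unplaced sequences and 141 of 143 on the main arms overlapped both lists, and 16 of those 18 lay on U. Of the narrower regions above 1, 0 of 47 on the heterochromatic and unplaced sequences and 0 of 42 on the main arms did. Above 1, the classes thus differed in this share only among the wider regions.

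In the replicate lists, above a score of 1, 2 of 14 heterochromatic and unplaced regions of replicate 1 were found in replicate 2, against 231 of 247 on the main arms. In replicate 2 it was 0 of 10, which allows a share of up to 27.8% by the Wilson interval, against 207 of 211 on the main arms. Without U these counts were 2 of 5 and 0 of 2, and on U they were 0 of 9 and 0 of 8. The 13 shared regions of replicate 1 had a median score of 0.636, and the 24 unshared 1.04. In replicate 2 the medians were 0.603 for the shared and 0.752 for the unshared regions. Shared minus unshared was thus -0.402 and -0.149 in replicates 1 and 2 on the heterochromatic and unplaced sequences, against 0.0477 and 0.0594 on the main arms (difference between them -0.329 ± 0.171, SD, n = 2, exact sign-flip permutation p = 0.5). Without U the heterochromatic difference averaged -0.0997 over the replicates. Width did not turn in this way: shared regions were wider than unshared by 579.5 and 438 bp on the heterochromatic and unplaced sequences, and by 531 and 544 bp on the main arms.

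**Figure D4:**
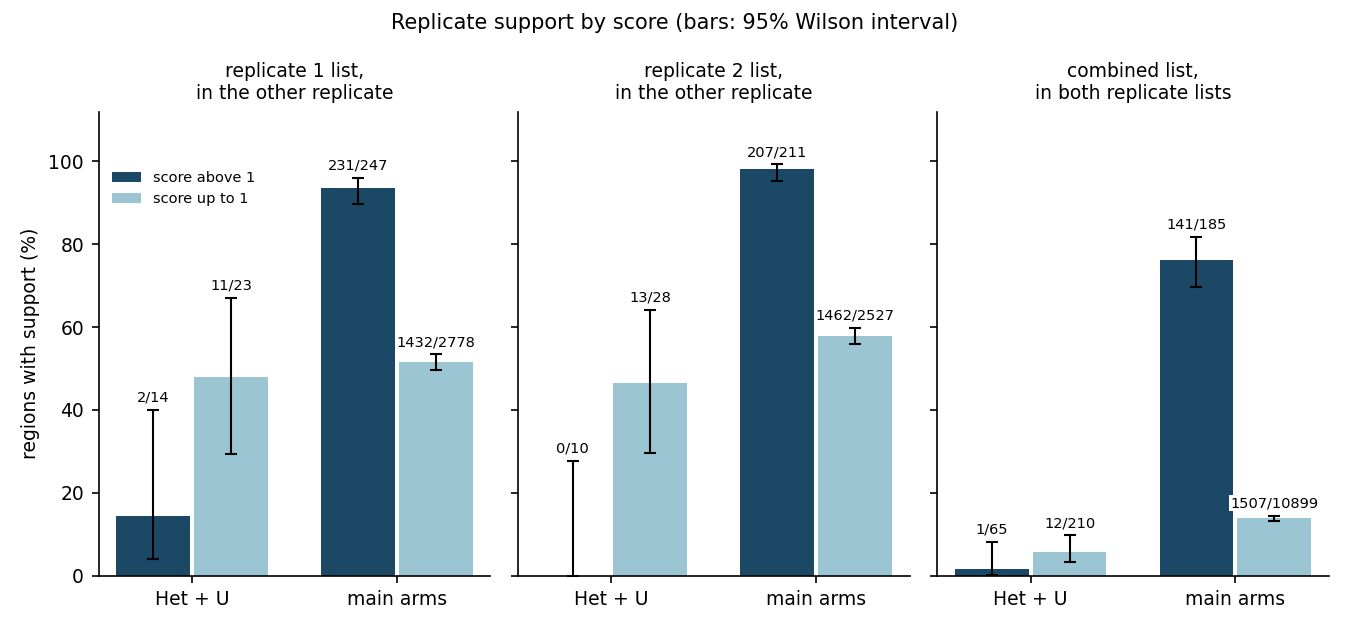
Share of regions with replicate support (y axis, percent) for regions scoring above 1 and up to 1, on the heterochromatic and unplaced sequences (Het + U) and the main arms, in each list. Bars carry 95% Wilson intervals and counts; above a score of 1 support was 2/14, 0/10 and 1/65 on Het + U and 231/247, 207/211 and 141/185 on the main arms.

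Other measures moved with the high scores. Across combined regions the Spearman rho of score and width was -0.323 over the 275 heterochromatic and unplaced regions and 0.0597 over the 11084 on the main arms, a description across regions of 1 list. The negative value was not seen in the replicate lists, where rho was -0.0411 over 37 and 0.143 over 38 heterochromatic and unplaced regions, against 0.487 and 0.538 on the main arms. Combined scores also lay more often at fixed steps. A score was counted as on a step when it differed from the commonest score of its list by log2 of one whole number over another, neither above 20, to within 1e-09. This held for 47 of 275 heterochromatic and unplaced regions, or 17.1%, against 4.25% on the main arms and 4.53% over all combined regions. U had the larger share, 29.8%, against 9.36% on the other 6 sequences. In replicate 1 the share was 24.3% on the heterochromatic and unplaced sequences and 8.60% on the main arms. In replicate 2 it was 7.89%, against 3.62% on the main arms, with 3 of 13 on U and 0 of 25 on the other 6 sequences. Among combined regions above a score of 1 it held for 31 of 65, or 47.7%, against 14.6% on the main arms. Of the regions found in both replicate lists it held for 0 of 13, against 27 of 1648 on the main arms. Such regions thus rarely lay on a step on the main arms either. The part of width and of the score steps in the low support was not tested.

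Some high replicate scores on these sequences had no counterpart in the combined list. Replicate 1 had 30 of its 37 regions in the combined list, or 81.1%, against 97.4% over all its regions, and replicate 2 had 35 of 38, or 92.1%, against 97.9%. The 7 missing from replicate 1 scored between 0.779 and 3.52, and 5 lay on U. The 3 missing from replicate 2 scored between 1.46 and 3.20, and all 3 lay on U. They include U from 158799 to 160352, the second-ranked score of replicate 1 at 3.52, and U from 3160211 to 3161521, the second-ranked of replicate 2 at 3.20. All 13 shared regions of each replicate were in the combined list.

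Regions were scattered along the longer sequences. The median gap between neighbouring combined regions was 66.9 kb on U, 32.0 kb on 2RHet, 27.1 kb on 3LHet and 21.3 kb on 3RHet, against 4.85 kb on the main arms. Of the 100-kb bins, 38 of 101 on U, 8 of 33 on 2RHet, 7 of 26 on 3RHet and 3 of 26 on 3LHet held no combined region. Long stretches without one were 466 kb on U, 389 kb on 3RHet, from 166409 to 555514, and 382 kb on 2RHet, from 2385915 to 2768141. The lists do not say how much of a stretch is assembly gap or sequence to which reads could not be assigned, so an empty stretch is not shown to lack POF.

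The most covered bin of 3LHet, 600001 to 700000, had 8.43% covered in the combined list, with 2.81% in replicate 1 and 1.34% in replicate 2. On 3RHet it was 1400001 to 1500000 with 7.54% (1.31% and 1.86%), on 2RHet 400001 to 500000 with 6.50% (2.02% and 2.14%) and on U 6000001 to 6100000 with 6.00% (1.72% and 1.65%). Each of these bins held 1 region in each replicate list, but the pair overlapped only on 2RHet. The replicate regions lay 1820 bp apart on 3LHet, 21914 bp on 3RHet and 66515 bp on U. Regions crowded together at few places outside XHet: groups of 3 or more combined regions with gaps under 5 kb were 4 regions on 2RHet from 470619 to 480433, 4 on 3LHet from 592866 to 607378, 3 on 3LHet from 2391642 to 2402973 and 3 on 3RHet from 2090157 to 2099531. The first of these begins with a region found in both lists, and the group of 4 on 3LHet was touched by 2 replicate 1 regions and 1 replicate 2 region, none of them shared.

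XHet was unlike the others in its layout. Of its 11 combined regions, 9 lay between 84626 and 126862 with gaps under 5 kb. From 89785 to 126862, leaving out the narrow region with the score of 2.35, the starts of 7 regions were spaced at 5811 to 5981 bp (mean 5872 ± 67.0 bp, SD over 6 spacings). The 7 regions were taken as the longest chain with spacings within 5% of each other, so that rule itself limits the SD. The spacing just before the chain was 5159 bp. These 7 had similar scores, 0.597 to 0.773, and widths of 1256 to 2005 bp. The only replicate 1 region on XHet, from 101545 to 103153 with a score of 0.990, fell in this row. So did both replicate 2 regions, from 107312 to 109222 at 1.01 and from 125019 to 126629 at 0.801. The first replicate 2 region started 5767 bp after the replicate 1 region and the second 17707 bp after the first, so the replicates marked different members of the row and shared none.

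Even with the narrow region kept in, XHet had 4 consecutive spacings within 5% of each other, while the longest such run among the 11466 spacings of the other 12 sequences was 3. The row was noticed in the values and then measured, so the comparison describes it and is no test. Whether the row follows a repeat in the sequence was not tested, as no release 5 genome was used here.

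**Figure D5:**
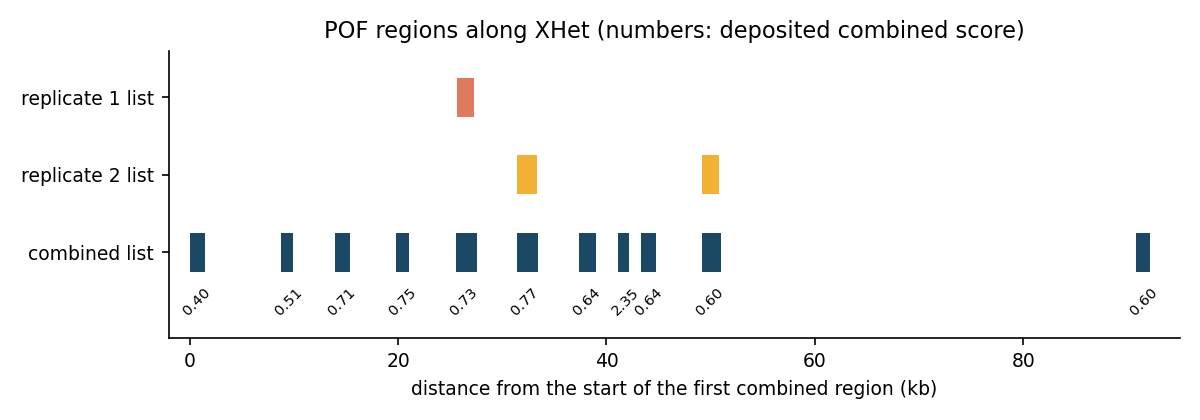
Regions on XHet in the 3 lists (rows), drawn to scale by distance in kb from the start of the first combined region, with the combined score under each combined region. The 7 regions of the row start 5811 to 5981 bp apart, and the 3 replicate regions sit on different members of it.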

How the data were processed

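Regions and their scores were used as the authors deposited them, on FlyBase release 5 coordinates, per the file headers. The deposited score is 1 value per region whose scale the headers do not state. The submitters' processing notes name Bowtie 0.12.7. Not given in the sources used here are the region caller, its threshold, how reads matching several places were handled, and how replicates were combined. The lists hold no read counts, so depth is unknown. The labels do not say that the replicates were separate embryo collections, and their spread may be technical.

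Samples were grouped by title. Regions were matched by an overlap of at least 1 bp. Regions are not replicates, so sequence classes were compared by sign-flip permutation over the 2 replicates (exact, two-sided, smallest p 0.5), and single lists were described with 95% Wilson or exact Poisson intervals, which cover counting error only. Covered percent is the summed region width over the sequence length in the headers. Named regions were the best scoring and the widest of each sequence, those in both replicate lists, and the most covered 100-kb bin of each sequence of at least 1 Mb. The members and comparisons were chosen with earlier results of these data known. Genes were not assigned, because the gene table used here is on release 6. Overlap and merging were checked on simulated lists and recovered the simulated number of shared regions in 10 of 10 runs. Alternatives are given at the end. Scripts ran on Python 3.11.15 with scipy 1.17.1, numpy 2.4.6, matplotlib 3.10.9 and pandas 2.3.3.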

Additional observations from a re-analysis of the deposited data

Results flagged for a closer look

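The median score of regions found in the other replicate minus that of regions not found there moved in opposite directions on the heterochromatic and unplaced sequences and on the main arms, in both replicates. It was -0.402 in replicate 1 and -0.149 in replicate 2 on the heterochromatic and unplaced sequences, against 0.0477 in replicate 1 and 0.0594 in replicate 2 on the main arms. Averaged over the replicates it was -0.275 with U and -0.0997 without U on the heterochromatic sequences, so much of its size lay with U. The exact sign-flip permutation test of the difference gave p = 0.5, the smallest that 2 replicates allow, so the difference is a description.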

How the results depend on the processing

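The density ratio of the heterochromatic and unplaced sequences over the main arms in the combined list, 0.153, stayed below 1 in each alternative: 0.113 for regions at least as wide as the narrowest replicate region (1301 bp), 0.219 in the better scoring 50% of the list, 0.198 without U, 0.176 with neighbours closer than 1000 bp merged, 0.126 for covered base pairs, 0.0611 with the length of Uextra added and 0.282 against the proximal arm ends. Uextra held 0 regions, so adding its length could only lower the ratio. Leaving out a replicate gave density ratios of 0.0753 to 0.0855, coverage ratios of 0.0695 to 0.0755 and shared percentages of 34.2 to 35.1. The share in both replicate lists, 4.73%, was 10.6% at 1301 bp or more, and the share in neither fell to 63.4% there; overlap rules moved them little. The width difference, -183 bp, was -154 bp at 1301 bp or more, -238.5 bp in the better scoring 50%, -321 bp after merging, -204 bp in replicate 1 and -229.5 bp in replicate 2. The score difference, 0.0927, was 0.197 in the better scoring 50% (a choice made by score) and 0.0338 without U. Of the 7 sequences, 4 kept their place in the order of density in replicate 1, 3 in replicate 2, 4 at 1301 bp or more and 3 by covered percent. The share scoring above 1, 23.6%, was 9.94% without U and 14.6% at 1301 bp or more. The score difference of shared and unshared regions, -0.275, ranged from -0.402 to -0.149 with a replicate left out and was -0.0997 without U. The alternatives for these last results were chosen after seeing the data. In all, 40 of 65 alternative values stayed within the spread or kept their direction where tested, 25 moved and 0 reversed. The combined density ratio, the densities and order of the sequences, and the shares of combined regions could only be counted as kept or moved, never as reversed. The score difference was counted as kept when it changed by less than 0.104, the SD between replicates, which is larger than the difference itself. Its change of direction in replicate 2 without U is not among the 65. Where no construction of the alternative shows it, the cause was not tested. With few regions per sequence and unknown depth, absence from a replicate list and weak recovery cannot be told apart. For ChIP against input, the groups that share replicate numbers, no paired analysis was possible because no list of the inputs was analysed here. The comparisons of sequences were formed within each replicate.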
